A study of Homo sapiens with 4 samples.

Results

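The proteasome genes of FLO-1LM and FLO-1 parental cells were examined in 4 RNAseq libraries, 2 per line. FLO-1 is a line of human esophageal adenocarcinoma cells long kept in culture, and FLO-1LM is a subline grown out from a liver metastasis of FLO-1 cells after repeated passage through NSG mice, which lack mature lymphocytes. Both lines were grown in culture without treatment, so the comparison is between the subline and the line it came from, and no healthy tissue or other subline was sequenced. Whether the 2 libraries of a line were grown as separate cultures is not given in the sources used here. The p-values then measure only the spread between these libraries, which may be technical. Replicate numbers below only name the libraries in their listed order within a line and do not come from the labels.

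Genes were chosen by symbol: protein-coding genes starting with PSMA, PSMB, PSMC, PSMD, PSME, PSMF or PSMG, outside chromosomes 8 and 14. There were 50 such symbols, of which 0 lay on chromosome 8 and 8 on chromosome 14, and PSMB3 could not be paired with an identifier and was not analysed here. This left 41 of the 63677 genes listed. Of these, 40 had enough counts to be tested among 17143 genes. The gene that did not was PSMA8, a testis form of a core subunit, with 7 and 3 counts in FLO-1LM and 0 and 2 in parental cells. The symbol rule also took in PSMC3IP, a meiotic recombination factor, and PSME3IP1, a partner of PSME3, neither of which is a proteasome subunit. The functional groups below hold only the genes analysed, without any on chromosome 14, so a group may lack subunits.

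The proteasome is the protease that degrades proteins tagged with ubiquitin. Its barrel-shaped core has outer rings of alpha subunits, which control entry, and inner rings of beta subunits, some of which cut peptide bonds. A regulatory particle of ATPases and non-ATPase subunits binds the barrel, recognises ubiquitin and unfolds the substrate. Interferon induces 3 replacement beta subunits, PSMB8, PSMB9 and PSMB10, which form the immunoproteasome and favour peptides that suit presentation on MHC class I.

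Total counts ran from 19060310 to 25920336 per library, and the 41 genes took between 0.623% and 0.638% of them. Over the 40 genes with enough counts, the FLO-1LM libraries differed from each other by a chi-square of 12.3 per degree of freedom and the parental libraries by 5.29, against 11.3 to 14.9 between lines. The FLO-1LM libraries thus stood about as far from each other as from parental cells. Of the epithelial markers, KRT8, KRT18, KRT19 and CDH1 were called lower in FLO-1LM, and EPCAM was at 0.466 CPM (counts per unit of library size, TMM-scaled) or less in every library. Their summed level was 482 to 496 CPM in FLO-1LM and 845 to 858 in parental cells, and its part in the results was not tested. The leukocyte genes PTPRC and CD79A, the fibroblast genes COL3A1 and DCN and the hepatocyte genes ALB, TTR, FGB and CYP3A4 had no count. Leukocyte markers summed to 0.932 to 0.943 in FLO-1LM and 0.544 to 0.678 in parental cells, fibroblast markers to 11.1 to 13.1 and at most 12.8, and hepatocyte markers to 0.045 to 0.272 and 0.045 to 0.104. In bulk RNA, fewer cells of a type and less RNA per cell cannot be told apart.

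Promoter sequences are shown for the immunoproteasome genes, whose induction by interferon runs through known elements, and for PSMG2, the gene called below. They come from RefSeq (GRCh38.p14), cover 250 bases before to 30 after an annotated start, and are read on the gene's strand. Capitals mark matches, on either strand, to GAAANNGAA (interferon-stimulated response element), TTCNNNGAA (gamma-activated site), TGACNNNGC (antioxidant response element) or CCAAT.
PSMB8, chr6:32844018-32844297, minus strand: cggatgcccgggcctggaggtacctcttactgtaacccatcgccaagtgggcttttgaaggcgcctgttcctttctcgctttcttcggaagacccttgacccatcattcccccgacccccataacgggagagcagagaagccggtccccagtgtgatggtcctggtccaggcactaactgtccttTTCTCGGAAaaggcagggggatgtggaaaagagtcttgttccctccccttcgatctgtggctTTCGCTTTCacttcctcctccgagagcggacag
PSMB9, chr6:32853942-32854221, plus strand: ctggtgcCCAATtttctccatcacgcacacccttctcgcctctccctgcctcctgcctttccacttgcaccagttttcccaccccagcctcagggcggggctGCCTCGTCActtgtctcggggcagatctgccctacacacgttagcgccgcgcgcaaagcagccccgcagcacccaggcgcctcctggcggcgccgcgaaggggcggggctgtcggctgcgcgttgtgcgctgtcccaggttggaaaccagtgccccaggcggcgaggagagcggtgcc
PSMB10, chr16:67936821-67937100, minus strand: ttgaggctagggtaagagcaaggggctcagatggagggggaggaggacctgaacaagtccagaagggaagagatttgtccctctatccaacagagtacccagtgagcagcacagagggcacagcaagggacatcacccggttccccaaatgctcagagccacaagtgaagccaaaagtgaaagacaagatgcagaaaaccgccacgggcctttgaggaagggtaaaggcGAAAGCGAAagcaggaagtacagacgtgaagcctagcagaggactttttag
PSMG2, chr18:12658488-12658767, plus strand: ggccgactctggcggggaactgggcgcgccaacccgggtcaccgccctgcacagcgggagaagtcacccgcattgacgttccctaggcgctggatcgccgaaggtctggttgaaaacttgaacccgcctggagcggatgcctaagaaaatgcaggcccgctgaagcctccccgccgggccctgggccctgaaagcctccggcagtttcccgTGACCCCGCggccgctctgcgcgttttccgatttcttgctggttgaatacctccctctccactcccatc

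The GAAANNGAA letters began 3 bases before the start of PSMB8, on the reverse strand, and 21 bases before that of PSMB10, and were not in the PSMB9 window. TTCNNNGAA lay in the PSMB8 window alone among these 4. TGACNNNGC lay in those of PSMB9 and PSMG2. Among 35116 promoter windows of all genes, 7.65% held GAAANNGAA, 7.3% TTCNNNGAA, 12.4% TGACNNNGC and 33.6% CCAAT. Of the 44 windows of 35 proteasome genes with an entry, 13.6% held the first, 13.6% the second, 22.7% the third and 45.5% the last. PSMB8 and PSMG2 each have another annotated start whose window held no match and is not printed. For PSMG2 that window is chr18:12702792-12703071. For both genes the printed window is thus the one with matches, and which start these cells use was not tested. A match is a stretch of letters and not a measured binding site.

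The proteasome genes were split evenly between the lines. Of the 40 tested, 20 had values above 0 and 20 below, with a median log2 fold change (FLO-1LM against parental) of 0.00059, beside 0.0016 over all genes tested. With library totals in place of TMM factors, 16 were above 0 and the median of all genes moved to −0.029. The median absolute log2 fold change was 0.070, beside 0.14 over all genes, and the median standard error (SE) was 0.078, beside 0.14. The 95% interval of the log2 fold change lay within 0.5 on either side of 0 for 37 of 40, the others being PSMA2, PSMD9 and PSMG2.

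Lines were compared with edgeR's quasi-likelihood test and Benjamini-Hochberg adjustment over all 17143 genes, and a gene was called at an adjusted p below 0.05. By this test 1 of 40 proteasome genes was called, PSMG2, which was higher in FLO-1LM. The background was 2.23% of all genes called, and 0.402% called higher, so the 2.5% of proteasome genes called was near the overall share. At an unadjusted p below 0.05 there were 5 (PSMG2, PSMB9, PSME4, PSMB7 and PSMC5), or 12.5%, against 12.4% of all genes. The CPM of the lines did not overlap for 8 genes that were higher (20.0%, background 20.9%) and 7 that were lower (17.5%, background 21.7%).

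**Figure D1:**
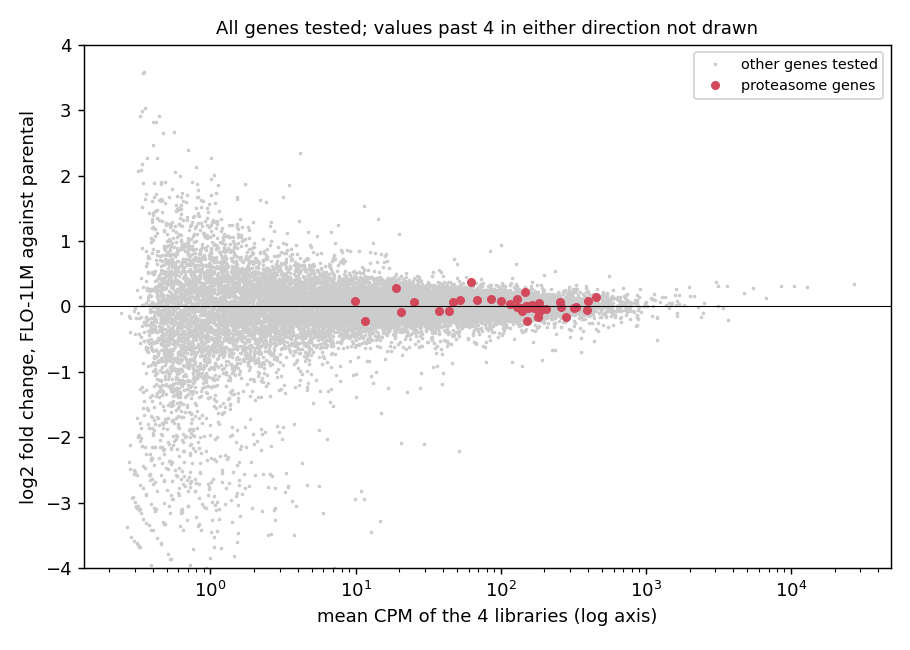
Log2 fold change (FLO-1LM against parental) against mean CPM on a log axis for the 17143 genes tested, with the 40 proteasome genes in red; 70 genes past 4 in either direction are not drawn. The proteasome genes lie between −0.23 and 0.38.

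The alpha ring had 5 genes, 3 higher and 2 lower, with a median log2 fold change of 0.066, which turned to −0.0051 without FLO-1LM replicate 1. The highest was PSMA2, an alpha subunit, at 23.1 and 18.8 CPM in FLO-1LM and 17.4 and 16.8 in parental cells. Both FLO-1LM libraries were above both parental ones, but the log2 fold change of 0.29 (SE 0.15) did not pass edgeR's test (adjusted p = 0.442). PSMA2 pseudogenes held 21.4% as many counts as the gene itself, so reads could be split between them. The lowest was PSMA5, another alpha subunit, at 167 and 189.7 CPM in FLO-1LM against 196 and 185 in parental cells. Its lines overlapped, with a log2 fold change of −0.091 (SE 0.080, edgeR adjusted p = 0.732).

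The constitutive beta ring had 5 genes analysed, which leave out PSMB3 and any gene on chromosome 14. All 5 had values below 0, from −0.17 to −0.0040, with a median of −0.025. EdgeR called 0 of them, beside 2.23% of all genes tested, with 1 at an unadjusted p below 0.05, beside 12.4%. PSMB6 turned to 0.082 without FLO-1LM replicate 1 and 0.049 without FLO-1 parental replicate 2. PSMB6 carries the caspase-like site and PSMB7 the trypsin-like site of the constitutive core. PSMB6 (ENSG00000142507, GRCh37 chromosome 17, 4699439 to 4701797, plus strand) stood at 155 and 176 CPM in FLO-1LM and 160.0 and 172 in parental cells. The range of FLO-1LM enclosed that of parental cells, with a log2 fold change of −0.0040 (SE 0.082, 95% interval −0.18 to 0.17, edgeR adjusted p = 0.994). PSMB7 (ENSG00000136930, chromosome 9, 127115744 to 127177723, minus strand) stood at 269 and 261 CPM in FLO-1LM and 293 and 302 in parental cells. Both FLO-1LM libraries were below both parental ones, with a log2 fold change of −0.17 (SE 0.071) that did not pass (edgeR adjusted p = 0.338).

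The immunoproteasome genes were expressed in both lines, and edgeR called 0 of the 3, beside 2.23% of all genes tested. By edgeR 1 of them had an unadjusted p below 0.05, beside 12.4% of all genes tested. DESeq2 and limma voom also called 0 of them. PSMB9, which takes the place of PSMB6, lies on chromosome 6 (ENSG00000240065, 32811913 to 32827628, plus strand). It stood at 146 and 135 CPM in FLO-1LM and 162 and 167 in parental cells. Both FLO-1LM libraries were below both parental ones, and the log2 fold change was −0.23 (SE 0.077, 95% interval −0.39 to −0.064), which did not pass edgeR's test (adjusted p = 0.184). Without FLO-1LM replicate 1, it was −0.28 and passed the threshold. That fit rests on 1 FLO-1LM library and called far more of all genes than the fit to all 4 libraries.

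PSMB8 (ENSG00000204264, chromosome 6, 32808494 to 32812456, minus strand) provides the chymotrypsin-like site of the immunoproteasome. It stood at 142 and 130.4 CPM in FLO-1LM and 143 and 144 in parental cells. FLO-1LM replicate 2 was the low library and replicate 1 was close to the parental pair, with a log2 fold change of −0.075 (SE 0.078, 95% interval −0.24 to 0.089, edgeR adjusted p = 0.791). Without FLO-1LM replicate 1 the value was −0.14 and without replicate 2 it was −0.014, neither of which passed. Exons of PSMB8 and PSMB9 overlap by 139 bases on opposite strands. PSMB8-AS1 overlaps PSMB8 by 602 bases on the opposite strand and PSMB9 by 174 bases on the same strand. How reads there were assigned affects both genes and cannot be told from the counts. The counting strand is not stated, and strand would not separate PSMB9 from PSMB8-AS1.

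PSMB10, which takes the place of PSMB7, lies on chromosome 16 (ENSG00000205220, 67968409 to 67970767, minus strand). It was far less abundant, at 9.96 and 10.4 CPM in FLO-1LM and 8.44 and 10.7 in parental cells. The parental libraries enclosed those of FLO-1LM, and the log2 fold change of 0.090 (SE 0.19, 95% interval −0.31 to 0.49, edgeR adjusted p = 0.912) is the least precise of the 3. It turned to −0.076 without FLO-1 parental replicate 1. Another protein-coding gene on the same strand, ENSG00000261884, shares 640 of the 1626 exon bases of PSMB10. That gene held 54 and 19 counts in FLO-1LM and 30 and 33 in parental cells. PSMB10 held 222 and 268 counts in FLO-1LM and 186 and 206 in parental cells. With the counts of that gene added as readthrough, the log2 fold change of PSMB10 was 0.082.

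**Figure D2:**
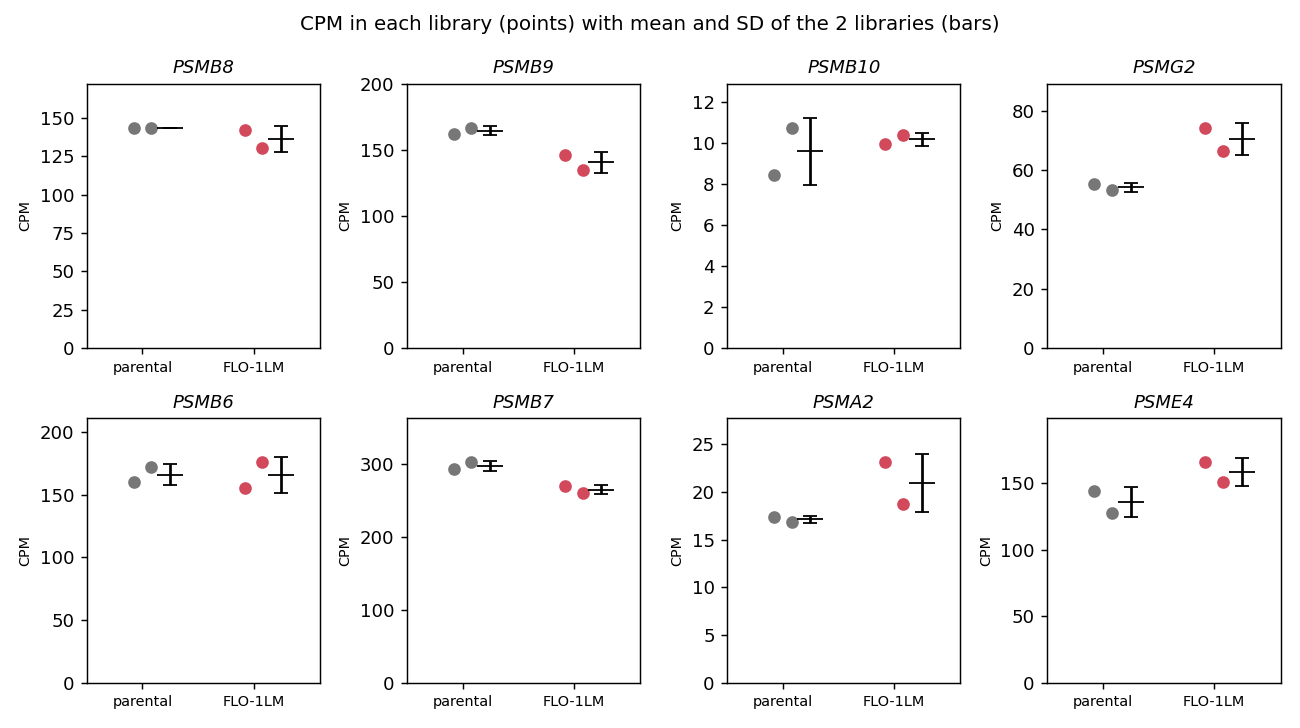
CPM of 8 named genes in each library (points; grey, FLO-1 parental; red, FLO-1LM) with mean and SD per line (black bars, 2 libraries each), each axis starting at 0. PSMG2 sits at 66.5 to 74.2 in FLO-1LM and 53.1 to 55.1 in parental cells, and PSMB9 at 135 to 146 in FLO-1LM and 162 to 167 in parental cells.

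Levels of different genes were compared as CPM per kilobase of exon. The ratio of PSMB9 to PSMB6 was 0.407 and 0.333 in FLO-1LM and 0.439 and 0.420 in parental cells, so parental libraries were higher in each case. On the log2 scale the means differed by −0.22 (FLO-1LM minus parental), with a spread of 0.15 between libraries of a line. The ratio of PSMB10 to PSMB7 was 0.0407 and 0.0439 in FLO-1LM and 0.0317 and 0.0391 in parental cells, so FLO-1LM libraries were higher in each case. The log2 difference was 0.26 with a spread of 0.16. Of its parts, PSMB10 had a log2 fold change of 0.090 (SE 0.19) and PSMB7, the divisor, one of −0.17 (SE 0.071). With 2 libraries against 2, an exact permutation test cannot go below 0.333, so no test was made. The ratios depend on the length chosen. With the MANE Select transcript as the length, PSMB9 to PSMB6 averaged 0.692 in FLO-1LM and 0.802 in parental cells. The log2 difference between the lines cannot depend on it, since the length of a gene is the same in every library.

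Sums per group are over the genes analysed only. The level of the immunoproteasome genes summed to 87.5 ± 4.45 CPM per kilobase (SD, n = 2) in FLO-1LM and 96.3 ± 2.04 in parental cells. The constitutive beta ring summed to 593 ± 15.8 and 616 ± 11.5, and the alpha ring to 195 ± 0.833 and 196 ± 4.54. The ATPases summed to 302 ± 2.34 and 294 ± 10.1, and the non-ATPases to 509.8 ± 11.9 and 500.1 ± 6.15. With library totals only, the non-ATPases summed to 504.4 in FLO-1LM and 505.5 in parental cells. By MANE Select length the alpha ring summed to 359.7 and 358.8. The order of the lines thus changed for both groups. Within the constitutive beta ring, PSMB7, PSMB4 and PSMB1 were the highest by exon union. Their library ranges overlapped (145.8 to 168.9, 137.7 to 161.0 and 143.0 to 151.7), and PSMB2 was the lowest at 33.7 to 34.8. By the longest transcript the mean of PSMB6 was above those of PSMB1 and PSMB4 (190.3, 169.3 and 155.0). By MANE Select length PSMB1 was above PSMB4 and PSMB7 (368.4, 349.0 and 285.7). The order above PSMB2 thus depends on the length chosen. Of the immunoproteasome genes, PSMB9 ranged from 40.5 to 49.9, PSMB8 from 37.5 to 41.2 and PSMB10 from 5.2 to 6.6 by exon union, so PSMB9 and PSMB8 overlapped and PSMB10 stood apart. The mean of PSMB9 was above that of PSMB8 by exon union and by MANE Select length, but below it by the longest transcript (56.9 against 58.9), so the order of PSMB9 and PSMB8 depends on the length chosen.

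**Figure D3:**
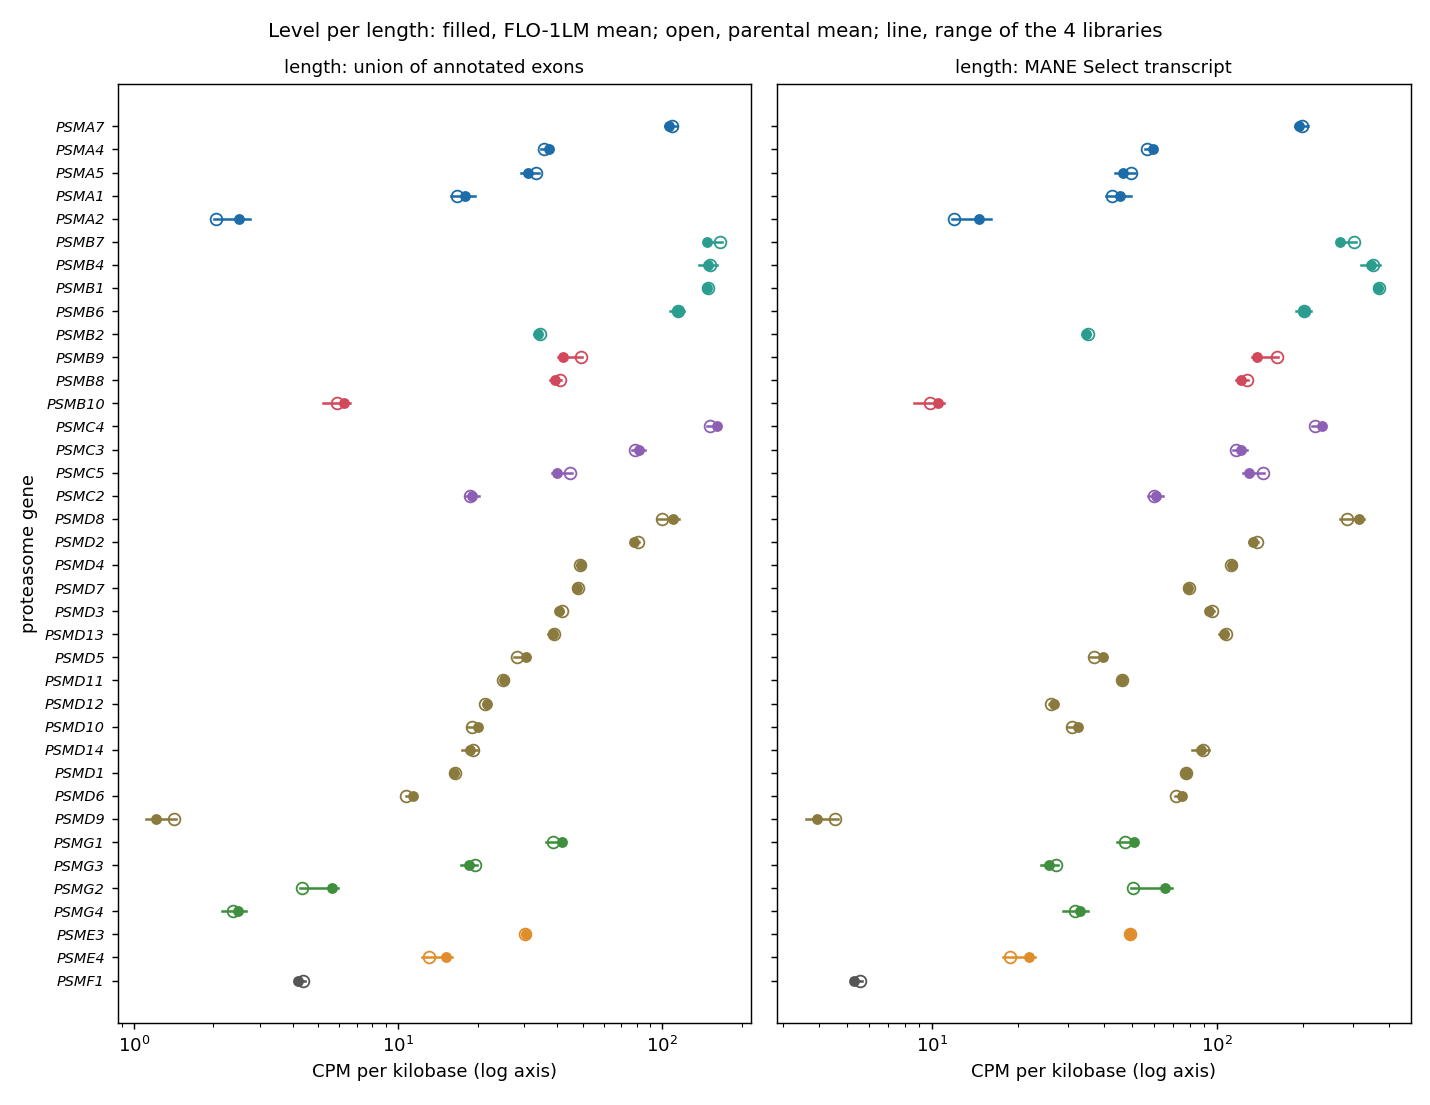
CPM per kilobase (log axis) of proteasome genes by exon union (left) and MANE Select transcript (right): filled points, mean of FLO-1LM; open points, mean of parental cells; lines, range of the 4 libraries. PSMB10 lies below the other immunoproteasome genes on both scales, and PSMB9 at 42.1 and 49.2 by exon union.

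The regulatory particle gave no call among 4 genes of its ATPases and 14 PSMD genes, grouped here as non-ATPases. Of all genes tested, 2.23% were called. The ATPases had a median log2 fold change of 0.038, which turned to −0.0082 without FLO-1LM replicate 1. With library totals only it was 0.0075, where the median of all genes was −0.029. PSMC4, an ATPase of the base, was the highest, at 417 and 403 CPM in FLO-1LM and 376 and 398 in parental cells, a log2 fold change of 0.081 (SE 0.071, edgeR adjusted p = 0.729) with no overlap between lines. PSMC5, another ATPase, was the lowest, at 179 and 164 against 189 and 195, and both FLO-1LM libraries were below the parental ones (log2 fold change −0.16, SE 0.076, edgeR adjusted p = 0.389).

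The non-ATPases had a median of 0.0011, with 7 higher and 7 lower. With library totals only it was −0.030, beside −0.029 for all genes. The group takes in PSMD5, PSMD9 and PSMD10, which are chaperones for assembly of the base and not subunits of the finished particle. PSMD8, a lid subunit, was the highest, at 453 and 498 CPM in FLO-1LM and 411 and 454 in parental cells, and the lines overlapped (log2 fold change 0.14, SE 0.076, edgeR adjusted p = 0.499). PSMD9 was the lowest at 9.78 and 11.6 against 12.2 and 12.7. Both FLO-1LM libraries were below the parental ones, with a log2 fold change of −0.22 and a SE of 0.17 (edgeR adjusted p = 0.698). For the 28 genes of the constitutive core and regulatory particle together, those chaperones included, edgeR called 0, beside 2.23% of all genes tested. By edgeR 2 of the 28 had an unadjusted p below 0.05, beside 12.4% of all genes tested. DESeq2 and limma voom also called 0 of the 28.

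The assembly chaperones build the alpha ring before the beta subunits join, and here PSMG2 was the only proteasome gene called. PSMG2, which pairs with PSMG1 in this step, is ENSG00000128789 on chromosome 18 (12658042 to 12728944, plus strand). It stood at 74.2 and 66.5 CPM in FLO-1LM and 55.1 and 53.1 in parental cells. Both FLO-1LM libraries were above both parental ones, with a log2 fold change of 0.38 (1.30-fold, SE 0.093, 95% interval 0.18 to 0.57, edgeR adjusted p = 0.037). The call was lost in DESeq2 (adjusted p = 0.063), with library totals only (0.056), and without FLO-1LM replicate 1 (0.056), FLO-1 parental replicate 1 (0.351) or FLO-1 parental replicate 2 (0.465), each with the gene still higher.

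PSMG1, the partner of PSMG2, had a log2 fold change of 0.11 (SE 0.086, edgeR adjusted p = 0.686). PSMG3, which pairs with PSMG4, was the lowest of the 4, at 39.1 and 34.3 CPM in FLO-1LM and 38.0 and 39.3 in parental cells, a log2 fold change of −0.076 (SE 0.11, edgeR adjusted p = 0.859). Among 15 other tested protein-coding genes within 1 Mb of PSMG2, 0 were called by edgeR, beside 2.23% of all genes tested. DESeq2 and limma voom also called 0 of the 15. By edgeR 3 of the 15 had an unadjusted p below 0.05, beside 12.4% of all genes tested. The log2 fold changes of the 15 ran from −0.32 to 0.27 with a median of 0.056. Exons of PSMG2 overlap those of CEP76 and SPIRE1 on the opposite strand, whose log2 fold changes were 0.076 and 0.019.

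The activators can cap the core in place of the regulatory particle. PSME4 was at 166 and 151 CPM in FLO-1LM and 144 and 128 in parental cells. Both FLO-1LM libraries were above both parental ones (log2 fold change 0.22, SE 0.083, edgeR adjusted p = 0.252). Without FLO-1LM replicate 2 the value was 0.29 and passed the threshold. That fit rests on 1 FLO-1LM library and called far more of all genes than the fit to all 4 libraries. PSME3, an activator of the nucleus, was at 156 and 159 against 152 and 161, within the parental range, and turned to −0.026 with library totals only (with TMM, log2 fold change 0.0052, SE 0.076, edgeR adjusted p = 0.991). PSMF1, an inhibitor of the core, was at 42.1 and 44.4 against 46.0 and 44.5, both FLO-1LM libraries below the parental ones (log2 fold change −0.065, SE 0.098, edgeR adjusted p = 0.870). PSMC3IP had a log2 fold change of −0.078 (21.0 and 19.3 against 23.6 and 18.8 CPM) and PSME3IP1 one of 0.095 (73.1 and 67.7 against 65.6 and 66.1 CPM), and neither was called.

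**Figure D4:**
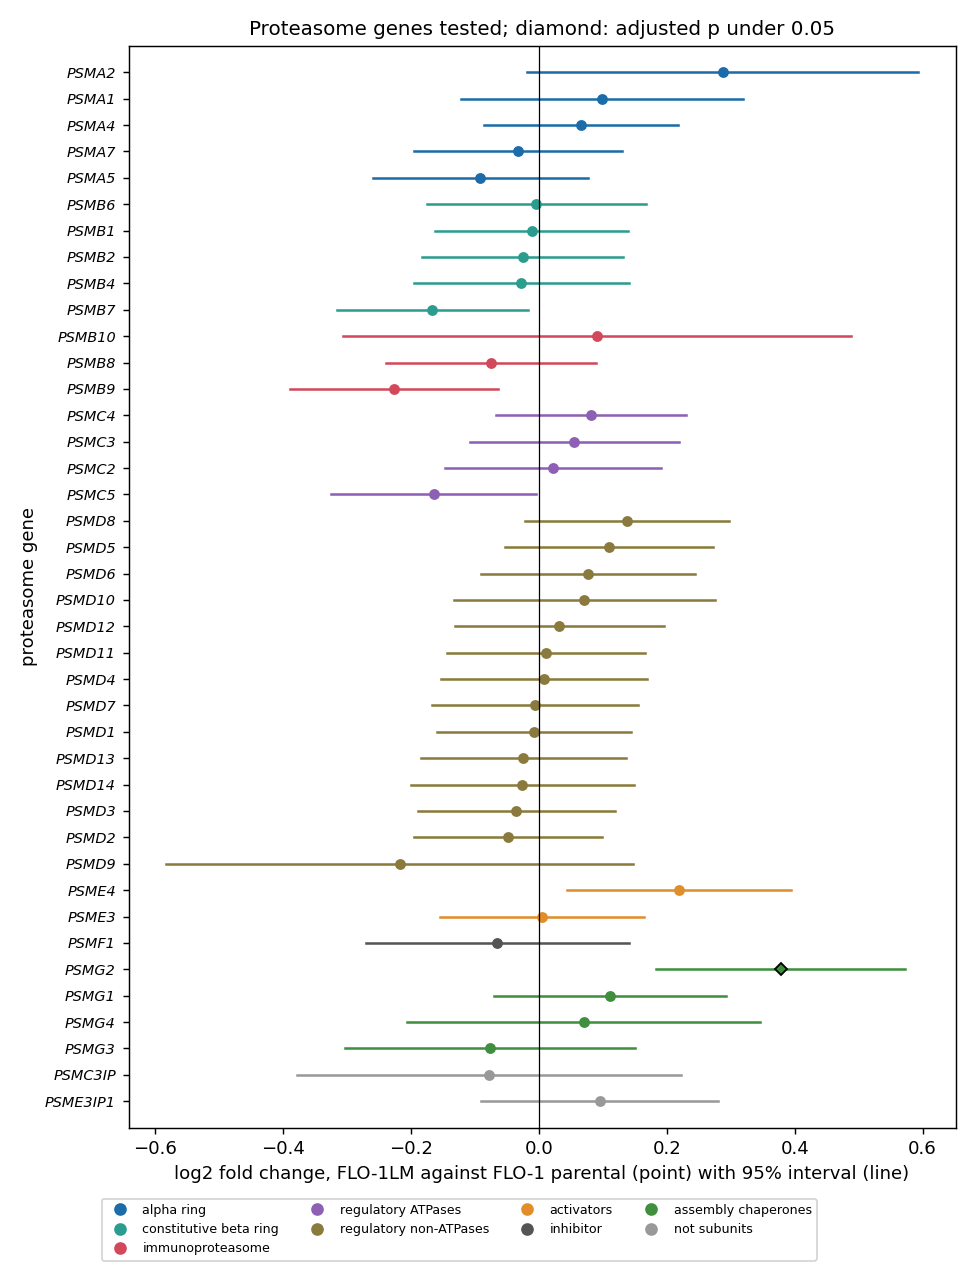
Log2 fold change (points) with 95% interval (lines) of the 40 proteasome genes tested, FLO-1LM against FLO-1 parental, coloured by functional group; the diamond marks the gene with an adjusted p below 0.05. PSMG2 is at 0.38, and the interval of 35 genes takes in 0.

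Of 33 other genes of the pathway, edgeR called 0, beside 2.23% of all genes tested, and DESeq2 and limma voom also called 0. By edgeR 5 of the 33 had an unadjusted p below 0.05, beside 12.4% of all genes tested. The 33 genes cover ubiquitin receptors and partners, shuttle factors, transcription of proteasome genes, ubiquitin itself, and interferon signalling and antigen processing. Their median log2 fold change was 0.034, with 22 higher and 11 lower. Of all genes tested, 50.4% were higher in FLO-1LM. NLRC5, an activator of MHC class I genes, had a log2 fold change of −0.20 (SE 0.11, edgeR adjusted p = 0.524). Of the 8 interferon and antigen processing genes, 5 were higher and 3 lower, between −0.20 and 0.17, with a median of 0.0076.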

How the data were processed

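Total RNA was made into strand-specific libraries and sequenced on a NextSeq instrument by the authors, who trimmed the reads and mapped them to GRCh37. The submitters' processing notes name bcl2fastq 2.17 and Trimmomatic 0.30. The aligner, the counter and whether it used strand are not given in the sources used here. The deposited values are unnormalized counts of reads on each Ensembl gene. Libraries were grouped by the cell line in the labels.

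Symbols, positions and lengths came from GENCODE on the same build, a later annotation, which named 55665 of 63677 identifiers. Genes were kept by filterByExpr (minimum count 10, minimum total 15), scaled by TMM and compared with edgeR 4.0.16 in R 4.3.3 (quasi-likelihood test, all 4 libraries, no covariate). P-values were adjusted by Benjamini and Hochberg's method over all 17143 genes. Standard errors were taken from the log2 fold change and the F statistic of the test (its square root as divisor). Total counts ran from 19060310 to 25920336, and the common biological coefficient of variation was 0.0899. CPM per kilobase used the union of annotated exons. Alternatives were DESeq2 1.42.0, limma voom 3.58.1, other scalings, filters and lengths, pseudogene counts added, mitochondrial genes left out and each library left out. Readthrough counts added to the gene and the MANE Select length were chosen after seeing the data. Scripts were tested on simulated data, where edgeR met the limit set for recovery and DESeq2 fell short of it, with no call in the wrong direction. The limit was then kept for edgeR alone.

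The genes and lists were chosen with earlier results of these data known. Given in full are PSMB6 to PSMB10, any gene called, and the highest and lowest of each functional group; the other genes of the pathway are given by counts, with values for those of largest change, 1 of which is not reported here.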

Additional observations from a re-analysis of the deposited data

How the results depend on the processing

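Over 13 alternatives, 18 named proteasome genes gave 234 log2 fold changes, of which 218 kept their direction and their side of the threshold, 5 lost the call (all PSMG2), 2 gained one and 9 changed sign. The sign changes were those of PSMB10 (−0.076 without FLO-1 parental replicate 1), PSMB6 (0.082 without FLO-1LM replicate 1 and 0.049 without FLO-1 parental replicate 2), PSMC3IP (0.098 without FLO-1 parental replicate 1), PSMG3 (0.018 without FLO-1LM replicate 2) and PSME3, which was −0.026 with library totals only, −0.00060 with at least 10 counts in every library, −0.0085 without FLO-1LM replicate 2 and −0.038 without FLO-1 parental replicate 1. With each library left out in turn, PSMB10 ran from −0.076 to 0.27, PSMB6 from −0.096 to 0.082, PSMC3IP from −0.23 to 0.098, PSME3 from −0.038 to 0.050 and PSMG3 from −0.17 to 0.018. All 9 reversed values lay within 0.1 of 0, and the cause was not tested. With library totals only, the median log2 fold change of all genes also moved, from 0.0016 to −0.029.

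The number of proteasome genes called was 1, but 0 with DESeq2 and 0 with library totals only, and 0 to 2 when a library was left out. The number of all genes called was 382, but 577 without the low-count filter, and 116 (without FLO-1 parental replicate 1) to 1052 (without FLO-1LM replicate 1) when a library was left out. The median log2 fold change of the proteasome genes was −0.030 with library totals only, beside −0.029 for all genes. It was −0.0026 to 0.025 when a library was left out. The ratio of PSMB9 to PSMB6 in FLO-1LM and parental cells was 0.278 and 0.322 with the longest transcript as the length and 0.692 and 0.802 with the MANE Select transcript. That of PSMB10 to PSMB7 in FLO-1LM was 0.0388 with either length, and with readthrough counts added it was 0.0488 in FLO-1LM and 0.0411 in parental cells. Summing alternative haplotype copies was not run, since no copies could be paired with the identifiers. No paired analysis was made, because the labels give no replicate numbers. Those used here follow the listed order within a line and cannot pair libraries across lines.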

Other observations

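Some genes beside the proteasome genes were looked at after their values were seen. PSMB8-AS1, a noncoding gene that overlaps PSMB8 and PSMB9, had 153 and 155 counts in FLO-1LM and 210 and 182 in parental cells, with a log2 fold change of −0.56 (SE 0.20) that did not pass edgeR's test (adjusted p = 0.206). The antisense gene ENSG00000259972 opposite PSMD7 had 16 and 15 counts in FLO-1LM and 49 and 50 in parental cells, with a log2 fold change of −1.89 (SE 0.49, edgeR adjusted p = 0.053). PSMD7 itself had a log2 fold change of −0.0057 (SE 0.077). Reads of a gene and its antisense partner cannot be told apart where the counting ignored strand, which is not stated.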
